A study of Sus scrofa with 96 samples.

Results

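The 150 transcripts described here were those with the largest rise in synovium, 52 weeks after surgery on the anterior cruciate ligament (ACL), among 16018 transcripts that met the limits of the selection, out of 46295 quantified. The limits were a length over 300 bases, a mean level in CON cartilage within 4 log2 units of that in CON synovium, and a median of at least 5 CPM, which are counts scaled to the total of the library, in treated synovium. The rise, d, was the difference between the treated and the CON median on the log2(CPM + 1) scale, over all 35 treated synovium libraries. Since the members were selected on d, and so on the CPM of treated and CON synovium, the difference between treated and CON synovium is given below as a description, and the 1 fit quoted for it serves as background only and supports nothing.

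The animals were adolescent Yucatan minipigs, females and castrated males, in which 1 knee had its ACL cut. The ligament was then left untreated (ACLT), replaced by a graft (RECON) or repaired with an extracellular matrix scaffold (REPAIR), and intact opposite knees of some of the same animals, which had no sham surgery, were the controls (CON). RNA of 12 CON, 11 ACLT, 12 RECON and 12 REPAIR knees was sequenced from articular cartilage and from synovium, 94 libraries in all, and the 2 libraries of knee ACLT 12 were set aside by the selection. Libraries held 7483050 to 19993000 estimated counts in synovium and 9043810 to 21937200 in cartilage, rounded to 6 digits. The study reported lower mean RNA integrity and a lower share of uniquely mapped reads in operated than in CON synovium. The rise d does not adjust for either.

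Synovium is the soft lining of the joint capsule, in which fibroblasts and macrophages produce and clear the components of joint fluid over a layer that carries fat, vessels and nerves. It is known to become inflamed and fibrotic after ligament injury, and the unstable knee is a standard model of post-traumatic osteoarthritis. A transcript is 1 RNA form of a gene, and a gene can have several. No table used here pairs the transcript identifiers with genes, so the members are given by identifier without a function, and the tissue labels were not checked against cell type markers. In tissue samples of this kind, more cells of a type and more RNA per cell cannot be told apart.

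Over the 150 members d ranged from 1.48 to 5.05 with a median of 2.20, and the median over all 16018 transcripts was -0.12, with 33.9% above 0. Just inside the limit were ENSSSCT00000008184.5 (1.499), ENSSSCT00000048990.2 (1.496) and ENSSSCT00000053943.3 (1.48), and just outside were ENSSSCT00000047288.3 (1.47), ENSSSCT00000074627.1 (1.47) and ENSSSCT00000065367.3 (1.46). ENSSSCT00000018798.5, which the selection names as left out, ranked 239 (d 1.14) and was not among the highest in any case. The members had a median length of 3682 bases, and all 16018 transcripts one of 3514 bases. In CON knees 70 of the 150 were higher in cartilage than in synovium by their means, or 46.7%, and 18.7% of the 16018 were.

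Once their values had been seen, the members were sorted into 3 groups. In 88 members the transcript had a rounded count above 0 in at least 7 of the 12 CON synovium libraries. In 53 members the rounded count was 0 in 6 or more CON synovium libraries. The remaining 9 members, set aside before those 2 counts, had every cartilage library of a castrated male above every cartilage library of a female. Sex was taken as the study's sample list gives it. Of these 9 members, 4 also had a rounded count of 0 in 6 or more CON synovium libraries. The highest d values came largely from the last 2 groups: of the 10 highest, 3 were split by listed sex and 7 were at zero in many CON libraries.

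**Figure D1:**
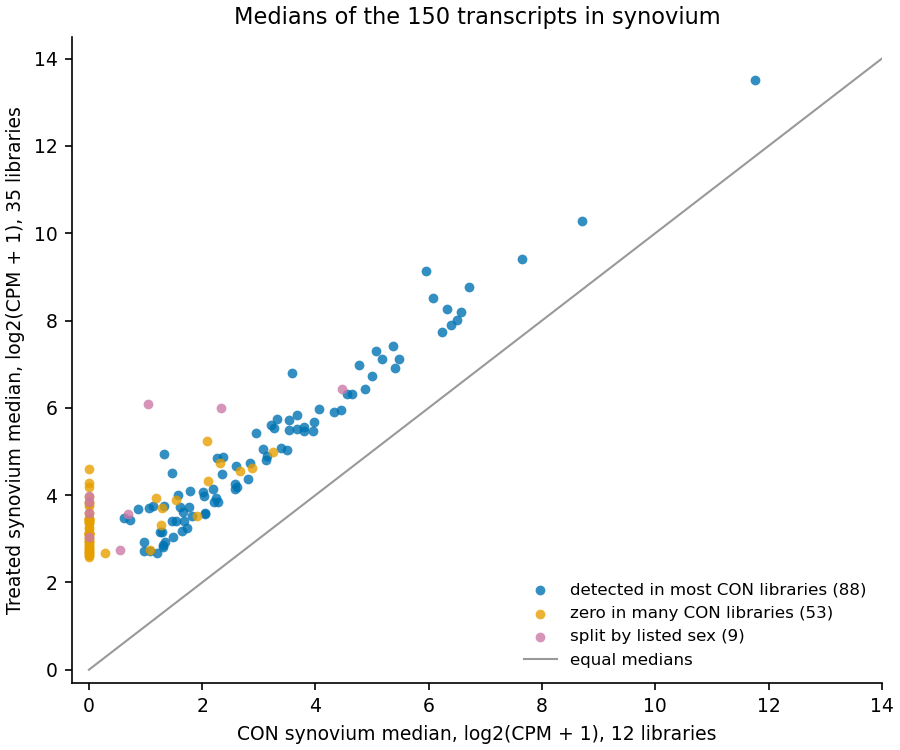
Median level in the 12 CON synovium libraries (horizontal) and in the 35 treated synovium libraries (vertical), both as log2(CPM + 1), 1 point per transcript and 1 colour per group of members. The 44 points at 0 on the horizontal axis are members with a CON median of 0, and the grey line marks equal medians.

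Before the groups are described, 2 synovium libraries need to be set out, since they went against their labels. For all 9 members split by listed sex, the synovium library labelled CON 11 lay in the range of females although its animal is listed as a castrated male, and the synovium library labelled REPAIR 7 lay in the range of castrated males although its animal is listed as female. ENSSSCT00000060930.3 had 0.343 CPM in the synovium labelled CON 11 and 82.0 CPM in the cartilage of that knee. The same transcript had 79.6 CPM in the synovium labelled REPAIR 7 and 0.163 CPM in the cartilage of that knee. The other 45 knees had both tissues in the range of their listed sex. For cartilage this follows from how the 9 members were defined, so only the synovium could differ.

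The same libraries stood apart in the 88 members detected in most CON libraries, for which listed sex was used only to set the 9 split members aside. Their mean log2(CPM + 1) was 5.17 in the library labelled CON 11 and ran from 2.31 to 3.70 in the 11 other CON libraries. It was 3.25 in the library labelled REPAIR 7 and ran from 4.19 to 5.86 in the 34 other treated libraries. The library labelled CON 11 was the highest CON library for 81 of the 150 members (54.0%), and for 9.45% of the 16018 transcripts. The library labelled REPAIR 7 was the lowest treated library for 39 of the 88, and for 248 of the 16018 transcripts. Both libraries keep their labels in the values below, and results that rest on them are also given without them.

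**Figure D2:**
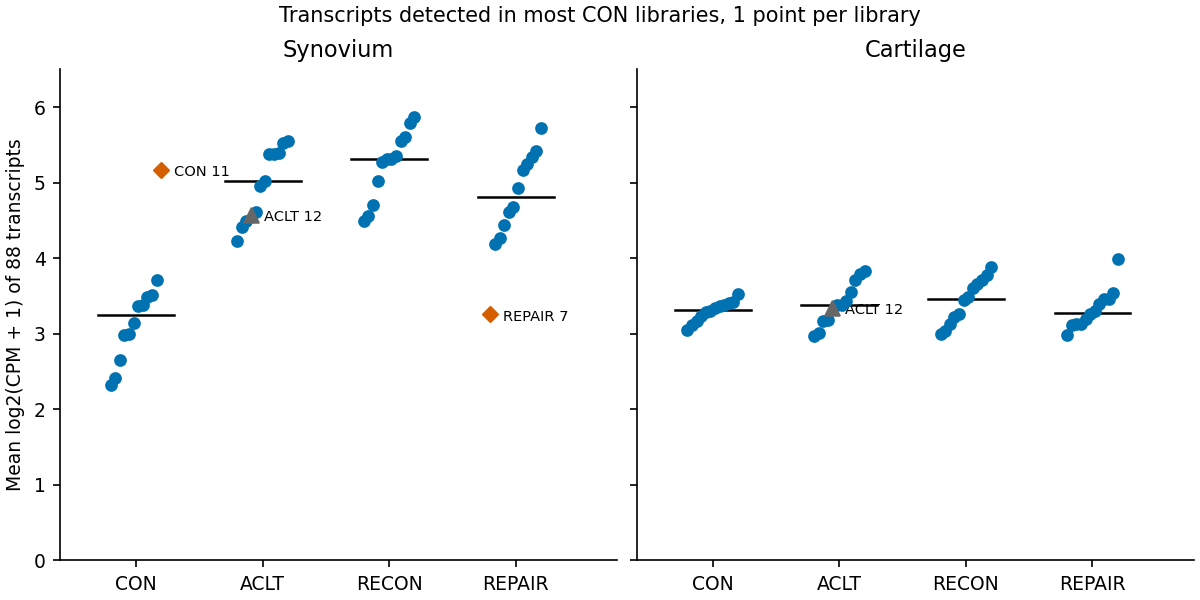
Mean log2(CPM + 1) of the 88 members detected in most CON libraries, 1 point per library, by treatment in synovium (left) and cartilage (right), with lines at the group medians. In synovium the libraries labelled CON 11 (5.17) and REPAIR 7 (3.25), drawn as diamonds, lie outside the range of the other libraries of their groups, while the triangle of ACLT 12, which the selection did not use, lies between the lowest and the highest of the 11 ACLT libraries.

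The 88 members detected in most CON libraries had a median d of 1.85, and 2.02 without those 2 libraries. Split by treatment, the libraries that chose the members gave a difference from CON above 1 in 86 of the 88 for ACLT, in all 88 for RECON and in 82 for REPAIR, with medians of 1.79, 2.05 and 1.64. Of the 16018 transcripts, 302, 366 and 263 were above 1, and the CON libraries are shared by these 3 counts. Since d was taken over these same libraries, the counts describe the selection and support nothing. Without the 2 libraries, the difference was above 0 in all 88 members among castrated males and in 87 among females. Over the 16018 transcripts these counts were 4963 and 5970, and the libraries are again among those that chose the members.

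Per length, the most abundant member was ENSSSCT00000061988.2, with a median of 4237 TPM, the deposited level scaled by length and library, in treated and 1279 TPM in CON synovium. Its CPM ran from 1402 to 21164 in CON with a median of 3470, and from 6196 to 38345 in ACLT with a median of 12056. In RECON it ran from 4281 to 46776 (median 12111), and in REPAIR from 1879 to 38189 (median 10447). The highest CON and the lowest REPAIR value were those of the libraries labelled CON 11 and REPAIR 7. Without them CON reached 6168 CPM and the lowest treated library had 3477 CPM, so the groups still overlapped.

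ENSSSCT00000085010.1 had the largest rise among the 5 most abundant members, with medians of 60.9 CPM in CON, 505 in ACLT, 579 in RECON and 562 in REPAIR. Its CON libraries ran from 18.7 to 613 CPM and its treated libraries from 99.9 to 1546 CPM. Besides the library labelled CON 11, another CON library reached 516 CPM, well inside the treated range. In all 12 animals with a CON and a treated knee its synovium level was higher in the treated knee, by 0.11 to 5.903 log2 units.

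The other 3 of the 5 most abundant per length were ENSSSCT00000081754.1, ENSSSCT00000008845.5 and ENSSSCT00000055832.3, with 893, 548 and 330 TPM in treated synovium. ENSSSCT00000081754.1 ran from 284 to 1314 CPM in CON (median 418) and from 417 to 2264 in treated synovium (median 1235). ENSSSCT00000008845.5 ran from 17.4 to 268 CPM in CON (median 66.5) and from 51.2 to 996 in treated synovium (median 365). Both had their highest CON value in the library labelled CON 11 and their lowest treated value in the library labelled REPAIR 7. In all, 15 of the 88 members exceeded 100 TPM in treated synovium, and the median of the 88 was 19.2 TPM.

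With the 94 libraries, no member had every treated synovium library above every CON library, and none of the 16018 transcripts did. Without the libraries labelled CON 11 and REPAIR 7, 7 of the 150 did, and 0.0624% of the 16018 transcripts did. Of the 7, 6 were members detected in most CON libraries, and the 3 with the widest gap were ENSSSCT00000066185.3, ENSSSCT00000102838.1 and ENSSSCT00000081754.1. ENSSSCT00000066185.3 reached 1.70 CPM in the 11 CON libraries and was at 3.41 CPM or more in the 34 treated libraries, with medians of 1.08 and 12.0 CPM over all libraries. ENSSSCT00000102838.1, which had the largest d of the 88 members (3.61), reached 5.66 CPM in the 11 CON libraries and was at 8.60 CPM or more in the treated ones. It had 72.9 CPM in the library labelled CON 11 and 1.17 CPM in the library labelled REPAIR 7. ENSSSCT00000081754.1 reached 505 CPM in the 11 CON libraries and was at 673 CPM or more in the treated ones.

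**Figure D3:**
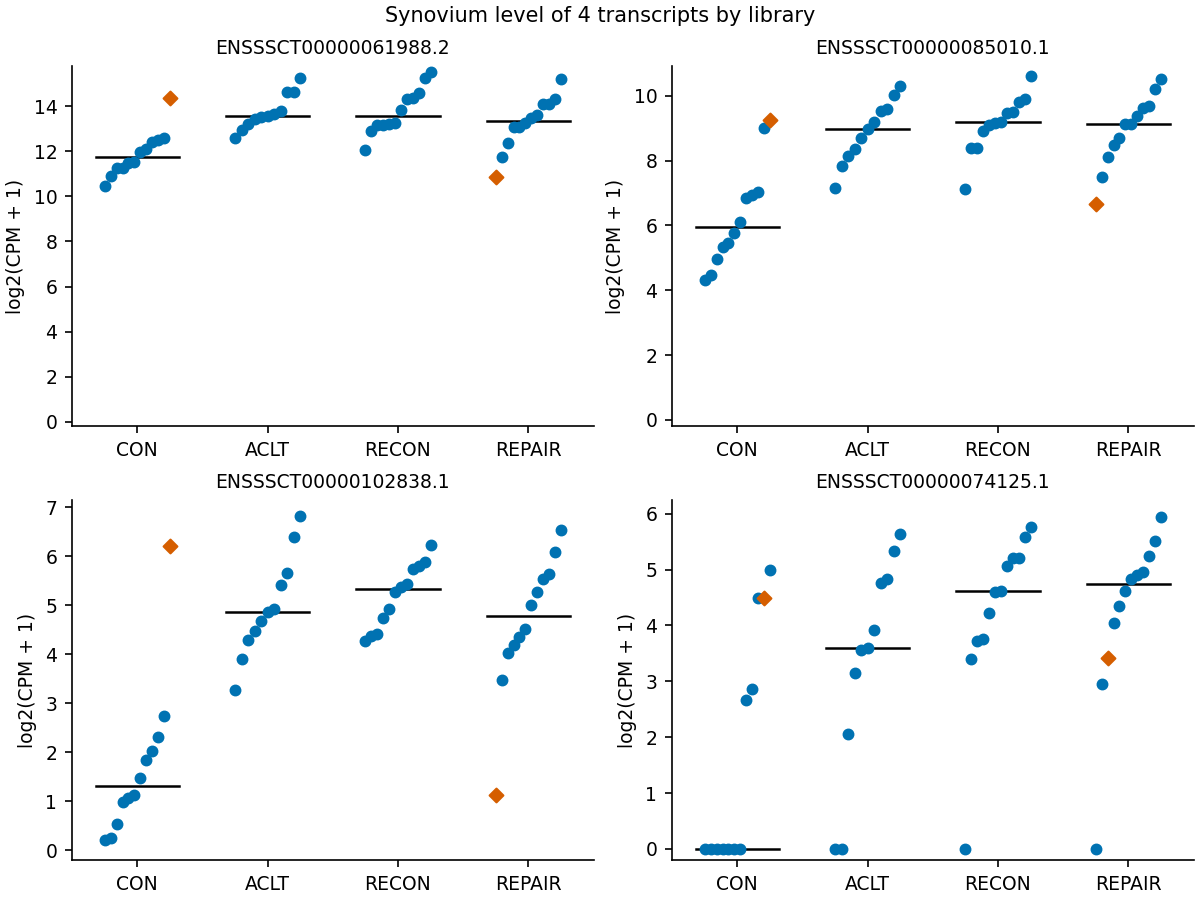
Synovium level as log2(CPM + 1) of 4 members by treatment, 1 point per library, lines at group medians and diamonds for the libraries labelled CON 11 and REPAIR 7. ENSSSCT00000061988.2, ENSSSCT00000085010.1 and ENSSSCT00000102838.1 shift as groups, while ENSSSCT00000074125.1 takes values of 0 and values well above 0 in CON and treated libraries.

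Within animals, the treated knee exceeded the CON knee in all 12 animals for 16 of the 88 members and for 1.08% of the 16018 transcripts. In the 10 animals without the libraries labelled CON 11 and REPAIR 7, it did so in every animal for 67 of the 88 members and for 3.17% of the 16018. These animals' libraries are among those that chose the members. ENSSSCT00000102838.1 was higher in the treated knee of each of these 10 animals by 2.84 to 5.28 log2 units, and ENSSSCT00000061988.2 by 0.62 to 3.54. Over treated knees, with group means removed and without those 2 libraries, pairs of the 88 members had a mean correlation of 0.304, and pairs of all 16018 transcripts had one of 0.0616. The pairs share libraries and depth, and the values are a description.

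The 53 members at zero in many CON libraries showed another pattern, in which single libraries held either no count or a clear level. A rounded count of 0 made up 60.5% of their values in CON synovium and 30.3% in treated synovium. In cartilage the shares were 42.6% in CON and 41.8% in treated knees. Where a count was present, the median level was 11.9 CPM in CON and 13.8 CPM in treated synovium. The zero shares in synovium were limited by the sorting and by the limit of 5 CPM on the treated median, which allows at most 17 of 35 treated libraries at zero, and nothing is read from their difference. Of these members, 40 had a CON median of 0, and with 4 of those split by listed sex they were all 44 such transcripts among the 16018, since a CON median of 0 with a treated median of 5 CPM or more is enough to pass the limit.

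ENSSSCT00000074125.1 had the largest d of this group (4.601), with 7 of 12 CON and 4 of 35 treated synovium libraries at zero. Its highest CON library had 30.7 CPM, above the treated median of 23.3 CPM, and its highest treated library had 60.7 CPM. In cartilage, 6 of 12 CON and 9 of 35 treated libraries were at zero. ENSSSCT00000051420.3 followed with a d of 4.27, and it was at zero in 8 CON and 15 treated synovium libraries, with the highest values at 67.1 and 75.2 CPM. Its ACLT median was 0 CPM, and its RECON and REPAIR medians were 20.9 CPM each. ENSSSCT00000011885.5 (4.19), ENSSSCT00000073010.2 (3.95), ENSSSCT00000041356.3 (3.85), ENSSSCT00000089362.2 (3.79) and ENSSSCT00000051094.3 (3.76) had 7 to 9 CON and 7 to 13 treated libraries at zero. In none of these 7 did the CON and treated ranges separate.

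For the members of this group, states at zero were compared between knees and tissues. The zero or non-zero state was the same in the synovium of both knees for 45.1% of member and animal pairs over 10 animals, and for 45.0% between knees of different animals. Between the synovium and the cartilage of a treated knee it was the same for 54.99%, and for 53.7% between tissues of different animals. Pairs of these members had a mean correlation of 0.00259 over treated knees, against 0.304 for the 88 members above. These members stayed low per length, with a median of 5.43 TPM in treated synovium and at most 24.3 TPM.

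In the 9 members split by listed sex, the synovium d was large (median 3.60) and the cartilage difference had the other sign (median -2.51). These were also the only 9 of the 16018 transcripts (0.0562%) whose cartilage libraries were split in this way. In the counts of libraries, 5 of 12 CON and 18 of 35 treated synovium libraries were in the higher range, and 6 of 12 CON and 17 of 35 treated cartilage libraries were. ENSSSCT00000060930.3 was the member with the largest d of all (5.05). Its synovium level ran from 78.6 to 112 CPM in CON and from 67.4 to 128 CPM in treated castrated males, without the libraries labelled CON 11 and REPAIR 7. In females it ran from 0.298 to 1.15 CPM in CON and from 0 to 0.808 CPM in treated synovium. Within a listed sex the CON and treated ranges overlapped.

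Without the 2 libraries, the median difference of the 9 members was -0.15 within castrated males and 0.00 within females. ENSSSCT00000087702.1 (d 3.98) and ENSSSCT00000013323.4 (3.85), also among the 10 highest, had differences of -0.64 and -0.08 within castrated males. Thus none of the 9 was higher in treated synovium by more than 0.01 among castrated males or 0.22 among females.

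**Figure D4:**
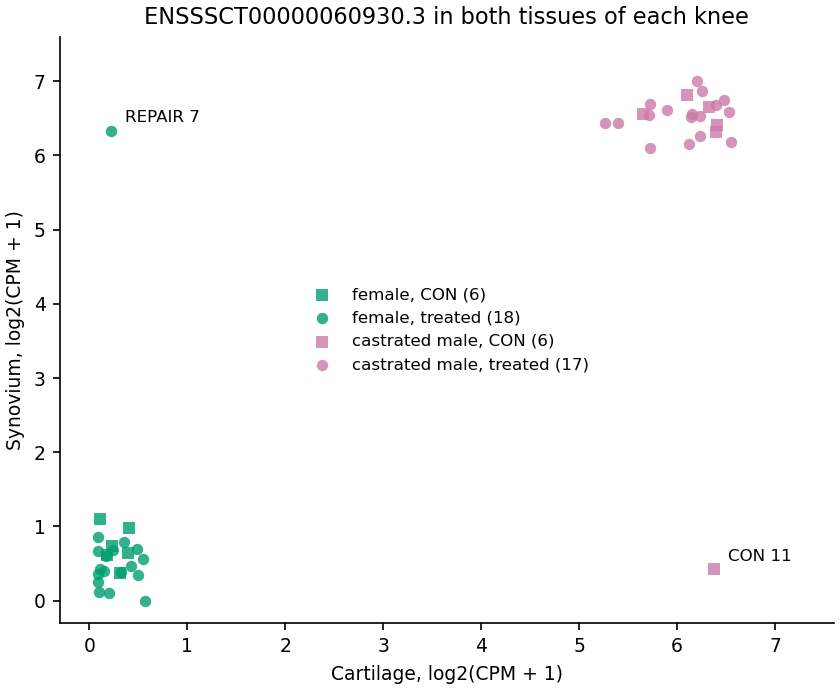
Level of ENSSSCT00000060930.3 in cartilage (horizontal) and synovium (vertical) of each of the 47 knees, as log2(CPM + 1), coloured by listed sex with squares for CON and circles for treated knees. Castrated males lie at the upper right and females at the lower left, and the knees labelled CON 11 and REPAIR 7 have their tissues in opposite ranges.

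The knee ACLT 12 gave the same measure in a synovium library that the selection had not used. It lay above the CON median for 122 of the 150 members (29.1% of the 16018 transcripts did). It was above every CON library for 30 members (8.28% of all), and above every one of the 11 CON libraries other than that labelled CON 11 for 69 members (9.82% of all). Of the 88 members detected in most CON libraries, 79 were above the CON median and 54 above all 11. ENSSSCT00000061988.2 had 18263 CPM there and ENSSSCT00000085010.1 had 336 CPM, both within the ACLT range. The CON libraries in this comparison were among those that chose the members, which favours low CON values, so these counts are not an independent sign of a rise.

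Differences between the treatments in synovium were not used by the selection, since it pooled all treated libraries, and were tested with edgeR's quasi-likelihood test over 30447 transcripts (Benjamini-Hochberg adjusted p under 0.05). No member passed for RECON against ACLT, where 0.0263% of all transcripts did, for REPAIR against ACLT (0.00985%) or for REPAIR against RECON (0.0821%). At an unadjusted p under 0.05 there were 4, 0 and 10 members of 150 (4.91%, 3.85% and 6.08% of all transcripts). These numbers depended on the fit. Limma voom with the knee as a replicate block had 20, 15 and 38 (2005, 1646 and 2920 of 30447 transcripts). EdgeR with listed sex as a covariate had 4, 11 and 25 (1490, 1244 and 1942 of 30447), and with synovium libraries alone 0, 1 and 5 (981, 607 and 1405 of 27861). After adjustment DESeq2 called no member in any of the 3 comparisons, and 107, 95 and 141 of its 40873 transcripts. The smallest adjusted p in edgeR was 0.258, for ENSSSCT00000022487.4, which was lower in REPAIR than in RECON by 0.67 (SE 0.22) on the log2 scale. In this comparison 37 of the 150 members had a positive fitted difference (52.2% of all transcripts), with a median of -0.36, and without the libraries labelled CON 11 and REPAIR 7 the number was 46. A difference that missed the threshold does not show that the treatments were alike.

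With listed sex as a covariate, 2 members passed for REPAIR against RECON (0.0755% of all transcripts), both split by listed sex: ENSSSCT00000060930.3 (log2 difference 2.77, SE 0.59, adjusted p in edgeR 0.0319) and ENSSSCT00000028884.4 (3.16, SE 0.71, adjusted p in edgeR 0.0398). This fit contains the synovium library labelled REPAIR 7. Without the covariate both had an adjusted p of 1.0 in edgeR. They were named after their values were seen.

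For the contrast that chose the members, the same edgeR fit placed 74 of the 150 members past the threshold, all higher in treated synovium, where 9.16% of all transcripts were called higher. Without the 2 libraries it was 84, against 11.1%. Nothing is read from these counts.

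In cartilage the 150 members did not shift as a group. The median difference between treated and CON medians was 0.00 on the log2(CPM + 1) scale, with 20 members above 0.5 and 27 below -0.5, and over the 16018 transcripts the median was -0.01 with 342 and 242. CON cartilage entered the selection through the limit on the tissue ratio. The 27 included the 9 members split by listed sex.

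**Figure D5:**
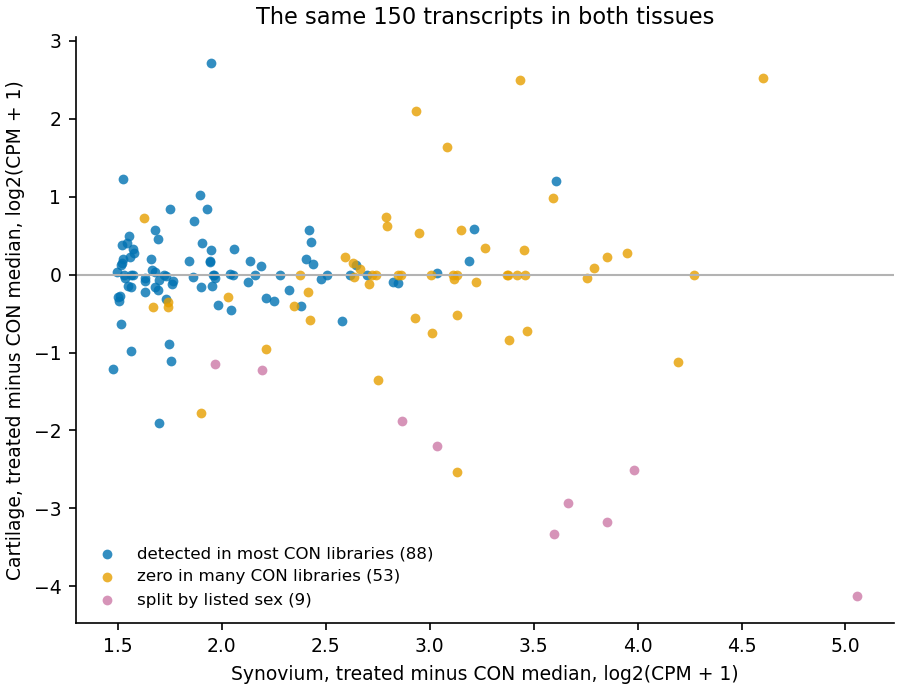
Difference between treated and CON medians on the log2(CPM + 1) scale in synovium (horizontal, the measure that chose the members) and cartilage (vertical), 1 point per member. Members detected in most CON libraries have a median of 0.00 in cartilage and run from -1.90 to 2.71. The 9 split by listed sex lie from -1.15 to -4.13.

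Averaged over the 3 treatments, 5 members passed edgeR's test in cartilage, 4 higher (0.627% of all transcripts) and 1 lower (0.348%). For ACLT against CON 3 were higher (0.328%), for RECON 4 were higher (0.762%) and 2 lower (0.236%), and for REPAIR 1 was higher (0.404%) and 1 lower (0.0887%). These were 7 different transcripts, all among the 88 detected in most CON libraries. The calls depended on the fit: for the average DESeq2 called 9 of the 150 (1.39% of its transcripts), a fit on cartilage libraries alone 2 of 133 (0.233%), limma voom with the knee as a replicate block 1 of 150 (0.223%), and edgeR with the animal as a block 1 of 114 (0.0436%).

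ENSSSCT00000004436.5 was called higher in cartilage in the 94-library fit. Its cartilage level ran from 8.09 to 35.4 CPM in CON (median 19.4) and from 11.7 to 220 CPM in treated knees (median 35.7), a log2 difference of 1.36 (SE 0.30, adjusted p in edgeR 0.00639), with ranges that overlapped. In synovium it ran from 89.3 to 836 CPM in CON (median 200) and from 249 to 1317 CPM in treated knees (median 675). The cartilage call was lost with the knee as a block (adjusted p 0.0928 in limma voom), with the animal as a block (log2 difference 1.06, adjusted p 0.116 in edgeR) and with cartilage libraries alone (0.0584 in edgeR). Over all alternatives the adjusted p of edgeR, DESeq2 or limma ran from 9.22e-05 to 0.116.

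ENSSSCT00000056399.3 had a cartilage level of 0.549 to 4.36 CPM in CON (median 1.91) and 1.85 to 16.6 CPM in treated knees (median 4.89). The log2 difference was 1.37 for the average (SE 0.30, adjusted p in edgeR 0.00667), and it was called for RECON and REPAIR too. With the animal as a block it was the member still called (adjusted p 0.0479 in edgeR), and with the knee as a block its adjusted p was 0.528 in limma voom. The lowest adjusted p over the alternatives was 0.000164, in DESeq2.

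ENSSSCT00000059974.3 was lower in treated than in CON cartilage by its medians, while its rise in synovium was the measure that chose it. In synovium its medians were 12.9 CPM in CON and 45.9 CPM in treated knees, and in cartilage 45.5 and 20.5 CPM. The cartilage libraries ran from 14.1 to 538 CPM in CON and from 4.00 to 110 CPM in treated knees, and overlapped. The log2 difference in cartilage was -2.07 (SE 0.37, adjusted p in edgeR 0.000392). This was the member still called with the knee as a block (adjusted p 0.0295 in limma voom), and it was not called with the animal as a block (0.398 in edgeR), while the lowest adjusted p over the alternatives was 2.72e-05, in DESeq2.

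The other 4 rested on low levels, and all were called by DESeq2 but none by limma voom with the knee as a replicate block. ENSSSCT00000008388.5 had cartilage medians of 0.0756 CPM in CON and 0.355 CPM in treated knees (log2 difference 2.27, SE 0.54, adjusted p in edgeR 0.0147). Its adjusted p was 0.228 in edgeR with cartilage libraries alone and 0.732 in limma voom. ENSSSCT00000087159.2 had medians of 0.108 and 0.380 CPM and reached 34.6 CPM in 1 ACLT and 47.2 CPM in 1 REPAIR library, against at most 1.35 CPM in CON (log2 difference 3.30, SE 0.89, adjusted p in edgeR 0.0435), and the call was lost with RIN, a score of RNA integrity, as a covariate (0.150 in edgeR). ENSSSCT00000015764.4 had no count in CON cartilage and 27 in 4 of 12 RECON libraries, of which 22 were in RECON 7. With counts pooled it was at least 8.92-fold higher against 3 counts over the CON group, mostly through that 1 library (adjusted p in edgeR 0.0402). With listed sex as a covariate its adjusted p was 0.0513 in edgeR, and it was 0.965 in limma voom. ENSSSCT00000019561.5 had 49 counts in 4 of 12 CON cartilage libraries, 26 of them in CON 3, and none in RECON. This was at least 16.5-fold lower by the same limit on pooled counts (adjusted p in edgeR 0.0332, and 0.942 in limma voom). Neither limit covers the spread between knees. ENSSSCT00000019561.5 was higher in treated synovium by the measure that chose it, at a median of 6.58 CPM against 0.954 CPM in CON.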

How the data were processed

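The authors quantified reads with Salmon 1.8.0 against transcripts of Sscrofa11.1, per the labels and the study's methods, and deposited for each library estimated counts and TPM values of Ensembl transcripts without normalization between libraries. Salmon divides reads between similar transcripts, and no measure of that uncertainty was used. Here CPM scaled the deposited estimated counts to each library's total, and rounded counts entered edgeR 4.0.16 in R 4.3.3 (TMM, filterByExpr with a minimum count of 10, glmQLFit and glmQLFTest, 8 groups in 1 fit, no covariates, Benjamini-Hochberg). Tested on simulated data, this procedure gave more false calls than its threshold promises, so other fits are given beside its counts. Alternatives used DESeq2 1.42.0 and limma 3.58.1.

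The members, gene lists and tests were chosen with earlier results of these data known. Transcripts were named by rank: the 10 highest and 3 lowest d and the 3 outside, up to 3 called per comparison and direction, the 5 highest in TPM, the 3 highest and lowest tissue ratios, and the 3 widest gaps without overlap. The last could only be applied without the libraries labelled CON 11 and REPAIR 7. The planned gene lists and cell type markers need gene names and were not used here, nor were sequences. Groups came from the labels, and animal, RNA integrity (RIN) and sex from the study's sample list, in which knee ACLT 12 does not appear. Where a group's knees come from separate animals the p-values measure the spread between animals, but 12 animals gave both a CON and a treated knee. By that list a replicate number joins the cartilage and synovium of a single knee. Deviations from group means correlated by 0.0584 on average over 47 knees (-0.0291 to 0.169, over 25032 transcripts). Intervals and limits from counts cover counting error only.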

Additional observations from a re-analysis of the deposited data

Results flagged for a closer look

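The synovium library of knee ACLT 12 entered neither the selection nor the fit of 94 libraries, and was used in the alternatives with all 96 libraries. It lay above the CON median for 122 of the 150 members and above every CON library for 30, and it is listed as a library outside the main comparisons with values above those of the controls. The members were selected for low values in those same CON libraries, so the counts are a description and not an independent signal. The share of the 16018 transcripts above the CON median in that library was 29.1%, and the share above every CON library was 8.28%. ENSSSCT00000060930.3, which was split by listed sex, had 46.5 CPM in its synovium and 32.7 CPM in its cartilage. The listed sex of that animal is not in the sample list used here.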

How the results depend on the processing

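The median d of the members stayed above 0 in every alternative, from 1.37 with means in place of medians to 2.50 without the synovium libraries labelled CON 11 and REPAIR 7. When the ranking was redone, 82 of the 150 members stayed among the 150 highest with means, 95 with ACLT synovium alone, 94 with the median difference within animals (a replicate block by animal), 92 in castrated males and 90 in females, and 107 to 145 in the other alternatives. The number above every CON library in ACLT 12 synovium was 37 with TMM-scaled CPM and 69 without the library labelled CON 11. Between treatments in synovium no alternative called a member except listed sex as a covariate, with 2 for REPAIR against RECON. Few transcripts were called there in any fit, at most 141 of 40873, by DESeq2 for REPAIR against RECON. In cartilage, the members called for the average, ACLT, RECON and REPAIR were 9, 7, 8 and 7 with DESeq2, which called 568, 343, 587 and 337 of all 40873 transcripts. When only cartilage libraries were fitted they were 2, 0, 2 and 0 of 133, beside 61, 0, 41 and 23 of all 26159. With the knee as a replicate block they were 1, 0, 0 and 0, beside 68, 6, 29 and 33 of all 30447. With the animal as a replicate block 1 was called for the average, beside 10 of all 22957 transcripts. For REPAIR the number was also 1 with RIN, 1 with all 96 libraries and 0 with the filter of a non-zero count in 2 libraries. Over all transcripts these 3 fits called 118 of 30447, 148 of 30202 and 126 of 40873. The single-tissue and animal fits held fewer transcripts and libraries, and the cause of these changes was not tested. Of the 16 calls of single members in cartilage, 16 were kept with DESeq2 and without the 2 libraries, 12 to 15 with RIN, listed sex, all 96 libraries or the filter, 4 of 14 with cartilage libraries alone, and 1 of 16 and 1 of 3 with the knee and the animal as a replicate block. The settings listed sex, and without the 2 libraries, were chosen after seeing the data. Estimates for members near 0 CPM are limited by depth.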

Other observations

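The members spanned nearly the whole tissue ratio that the limits allowed. ENSSSCT00000004436.5, ENSSSCT00000102934.1 and ENSSSCT00000018316.3 had the lowest ratios of cartilage to synovium in CON knees, at -3.66, -3.48 and -3.39 on the log2 scale. ENSSSCT00000102934.1 had medians of 15.7 CPM in CON and 61.7 CPM in treated synovium, and 0.405 and 0.863 CPM in cartilage. At the other end ENSSSCT00000008874.5, ENSSSCT00000061866.3 and ENSSSCT00000008184.5 had ratios of 3.61, 3.44 and 3.33. ENSSSCT00000008874.5 had medians of 74.1 CPM in CON and 213 CPM in treated synovium, and of 1035 and 859 CPM in cartilage. ENSSSCT00000061866.3 rose from a median of 0.825 CPM to 11.9 CPM in synovium by the measure that chose it, and had 32.8 and 30.8 CPM in cartilage.

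The members together took a median of 0.636% of the counts of a library in CON synovium, 1.95% in ACLT, 2.22% in RECON and 1.69% in REPAIR. Most of that share came from the 88 members detected in most CON libraries, at 0.559% in CON and 1.85%, 2.14% and 1.61% in the treated groups. Judged by its median CPM given above, the single member ENSSSCT00000061988.2 made up a large part of it in each group. The members were chosen by their rise in synovium, so the higher shares in treated groups describe the selection. The 53 members at zero in many CON libraries took 0.0315% in CON and 0.0618% to 0.0653% in the treated groups.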
